A study of Homo sapiens with 30 samples.

Results

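The transcriptome of Ramos cells after 24 h with 2.5 μM Omomyc was compared with that after 24 h with 0.5 μM Omomyc. The comparison took the 3 libraries of each of these groups, 6 of the 30 libraries in the study, and the 13629 of 57992 genes with a mean of at least 0.5 RPKM (reads divided by gene length and by the size of the library) over the 6. Ramos is an established human Burkitt lymphoma line with a MYC translocation. Omomyc is a miniprotein made from the dimerization and DNA binding part of MYC, added here as a protein to the cells. Besides these groups, the study sequenced Ramos cells that were untreated or had 0.5 or 2.5 μM Omomyc for 6 h, and groups of HCT116 colon carcinoma cells that are not described here. Both groups compared are the same line with the same agent, and differ by dose. Their titles read 24 h whereas a tag of the same samples reads 4 h, and the titles were used. The sources used here do not say how Omomyc was delivered to Ramos cells, whether the untreated cells had a vehicle, or whether the 3 replicates were separate cultures, so p-values measure the spread between these libraries, which may be technical.

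MYC pairs with MAX and binds E box sequences near gene starts, where it activates genes for growth, ribosome production and cell division. Omomyc can pair with MAX or with itself and occupy the same sites. A Burkitt lymphoma cell is a transformed germinal center B cell. When B cells are stimulated through the antigen receptor or CD40, NF-κB and ERK signaling turn on chemokines, survival genes and immediate early genes, and MHC class II molecules present antigen to T cells. E2F factors drive the genes of DNA replication, and SREBP factors those of sterol and fatty acid synthesis.

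RPKM were fractional, so the number of reads per library is unknown and precision rests on the 3 replicates. RPKM summed to 783788 to 828045 in the libraries at 2.5 μM and to 853021 to 917132 in those at 0.5 μM, and small noncoding RNAs took 34.3 to 38.2% and 40.9 to 45.7% of these sums. The part of this difference between the doses in the results was not tested. Counts under an equal sum of RPKM, which removes the difference in the sums, are given for the lists whose counts it moves. Replicate 1 at 0.5 μM stood apart, with the highest sum and share of small RNAs and the lowest weight (0.596) when limma weighted the libraries by their fit. It was also the library of its group farthest from the other dose in 229 of the 326 genes called higher and 184 of the 253 called lower. All 6 B cell markers (among them MS4A1, CD79A, CD79B, PAX5 and CD22) were present, with summed levels of 1520 to 1547 RPKM at 2.5 μM and 1498 to 1558 RPKM at 0.5 μM. None of the 6 myeloid, 11 colon epithelium, 6 fibroblast and 5 erythroid markers reached a mean of 0.5 RPKM, and of 9 T and NK cell markers 1 did (TRAC).

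At 24 h the higher dose of Omomyc went with lower RNA of many B cell activation genes (chemokines, NF-κB targets, immediate early genes and MHC class II) and with higher RNA of part of the DNA replication and lipid synthesis genes. The largest called differences were in chemokine genes, with CCL1, CCL3 and CCL4 lower at 2.5 μM than at 0.5 μM by 6.07-fold, 4.51-fold and 4.5-fold on the scale of log2(RPKM + 0.5), which understates the change of low genes. By limma with Benjamini-Hochberg adjustment over all genes tested, 579 of the 13629 genes (4.25%) were called at an adjusted p under 0.05, 326 (2.39%) higher and 253 (1.86%) lower at 2.5 μM. The groups did not overlap in 3699 genes (27.1%), and in all 579 called genes. Most differences were small: the median was 0.29 for genes called higher and -0.47 for genes called lower on the log2 scale, against 0.03 for all genes tested. A difference of at least 1 was reached by 5 genes called higher and 35 called lower. The balance of the calls depended on scaling, with 213 higher and 328 lower after median-ratio scaling, 159 and 285 after quantile normalization, and 194 and 276 with an equal sum over nuclear protein-coding genes. An equal sum of RPKM gave 2377 and 190 and moved the median of all genes to 0.16. Leaving out 1 library gave 269 calls without replicate 1 at 0.5 μM, 453 and 645 without its replicates 2 and 3, and 233, 142 and 144 without replicates 1, 2 and 3 at 2.5 μM. In none of these settings was a called gene called in the opposite direction. With a library left out this was fixed in advance, since the groups of all called genes did not overlap. Only the changes of scaling could have reversed a call. The calls also depended on how the variance was modeled: without its trend on expression 54 genes were called (8 higher and 46 lower). With no filter on low values, where only genes at 0 in every library were left out, 65 of 25865 were called (21 higher and 44 lower). In these alternatives, in this order, 3 and 2 chemokine genes, 2 and 3 NF-κB genes, 0 and 2 MHC class II genes and 4 and 4 immediate early genes were called lower. In the same order 0 and 0 replication genes and 1 and 5 lipid synthesis genes were called higher. As in any bulk sample, fewer cells of a kind and less RNA per cell cannot be told apart.

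**Figure D1:**
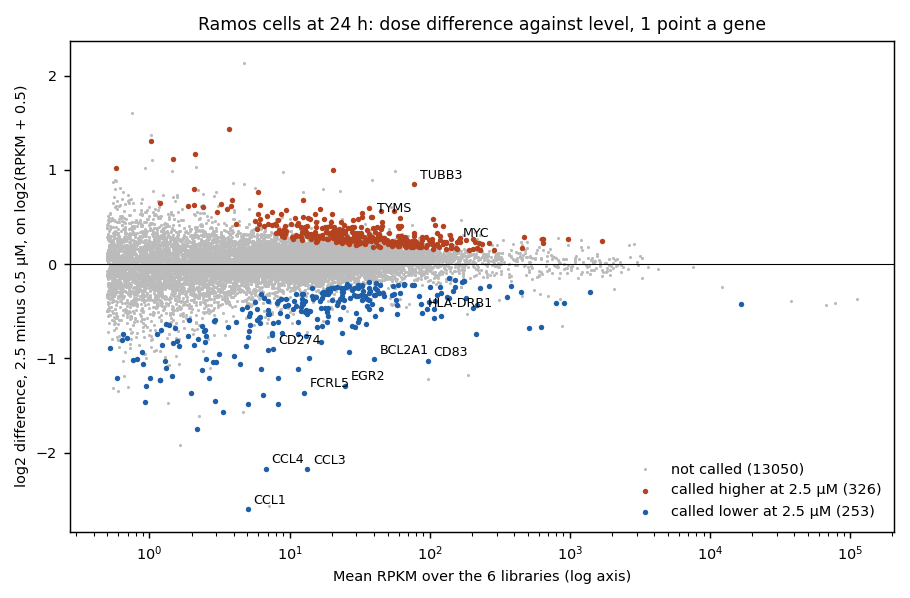
Each point is 1 of the 13629 genes, with its mean RPKM over the 6 libraries on a log axis and its log2 difference (2.5 minus 0.5 μM at 24 h) on the vertical axis. The 253 genes called lower (blue) reach -2.60 at CCL1, whereas most of the 326 called higher (red) lie below 1.

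Chemokines recruit other immune cells, and CCL3 and CCL4 are made by activated B cells. CCL1, a chemokine made by activated lymphocytes, lies at chr17:34360328-34363231 on the minus strand in GENCODE 29 (GRCh38). It was at 1.11, 0.993 and 1.08 RPKM in the 3 libraries at 2.5 μM and at 9.72, 8.46 and 8.79 RPKM at 0.5 μM (log2 difference -2.60 ± 0.10 SE, adjusted p = 9.52e-06). CCL3 was at 4.91, 4.34 and 4.12 RPKM at the higher dose and 29.7, 18.3 and 19.1 RPKM at the lower (log2 difference -2.17 ± 0.16 SE, adjusted p = 0.000484). For its neighbor on chromosome 17, CCL4, these values were 2.25, 2.28 and 1.79 and 15.6, 8.66 and 10.4 RPKM (log2 difference -2.17 ± 0.19 SE, adjusted p = 0.000965). In all 3 genes every library at 2.5 μM lay far below every library at 0.5 μM, and replicate 1 at 0.5 μM was the highest. The near-identical copies CCL3L1 and CCL4L2 can share reads with CCL3 and CCL4, so that all 4 are uncertain. CCL3L1 and CCL4L2 differed by -1.75 (adjusted p = 0.0025) and -1.39 (adjusted p = 0.00549) on the log2 scale. Of the 9 tested genes of a list of chemokines and their receptors, which does not hold CCL1 or these copies, 5 were called lower and 0 higher. Of all genes 1.86% were called lower and 2.39% higher. The median difference of the list was -0.42, and with an equal sum of RPKM 5 were called lower and 1 higher. With any 1 library left out, 3 to 5 calls were left, with 4 without replicate 1 at 0.5 μM, 3 without replicate 2 at 2.5 μM and 3 without replicate 3 at 2.5 μM. CCL22, which attracts regulatory T cells, was at 0.941, 0.697 and 0.946 RPKM at 2.5 μM and 4.6, 2.36 and 2.42 RPKM at 0.5 μM (log2 difference -1.36 ± 0.22 SE, adjusted p = 0.0134). The lymph node homing receptor CCR7 was low throughout, at 0.799, 0.655 and 0.59 RPKM against 2.51, 1.96 and 2.12 RPKM (log2 difference -1.19 ± 0.15 SE, adjusted p = 0.00529). CXCR5, which guides B cells to follicles, differed by -0.42 (adjusted p = 0.0192). The other 4 members, CCL5, CCR6, CXCR4 and CCR10, were not called.

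NF-κB turns on its own inhibitors and a set of survival and costimulation genes, and many of these were lower at the higher dose. Of 27 tested genes of a list of NF-κB feedback and target genes, 16 were called lower and 0 higher, against 1.86% and 2.39% of all genes, and their median difference was -0.38 against 0.03. An equal sum of RPKM gave 13 lower and 2 higher. The groups did not overlap, with 2.5 μM lower, in 21 of the 27, against 9.47% of all genes. This count was 10 to 16 calls when 1 library was omitted, 14 without replicate 1 at 0.5 μM and 10 without replicate 2 at 2.5 μM. CD83, a surface marker of activated B cells, was at 64.7, 65.2 and 61.1 RPKM at 2.5 μM and 149, 120.4 and 123 RPKM at 0.5 μM (log2 difference -1.03 ± 0.075 SE, adjusted p = 0.000484). BCL2A1, an antiapoptotic BCL2 relative, was at 29.1, 25.4 and 25.2 against 60.7, 51.4 and 49.8 RPKM (log2 difference -1.01 ± 0.082 SE, adjusted p = 0.000847). In both genes the 3 libraries at 2.5 μM lay close together and well below the others. The cytokine subunit gene EBI3 was at 2.96, 2.67 and 1.68 RPKM and 10.3, 6.62 and 6.29 RPKM (log2 difference -1.48 ± 0.21 SE, adjusted p = 0.00793). TNFAIP3, whose product A20 shuts off NF-κB, was at 3.77, 3.92 and 3.72 RPKM and 7.56, 5.9 and 6.19 RPKM (log2 difference -0.70 ± 0.10 SE, adjusted p = 0.00887). CFLAR, an inhibitor of death receptor signaling, and LTA, a cytokine of the tumor necrosis factor family, differed by -0.67 (adjusted p = 0.00372) and -0.61 (adjusted p = 0.016). The other called members were TRAF1, PLEK, TNF, REL, BIRC3, GADD45B, NFKBIE, NFKB2, NFKB1 and ICAM1, with differences from -0.58 to -0.25. Of the others, the subunit genes RELA (0.08) and RELB (0.08) and the inhibitor gene NFKBIA (-0.11) were not called.

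The sequences before the starts of 3 of the genes called lower, from RefSeq on GRCh38.p14, are shown because the site that NF-κB binds was more frequent among the genes called lower. The 250 bases before a start are given 5′ to 3′ on the strand of the gene, with matches to the κB consensus on either strand and, in TNFAIP3, the E box CACGTG, in capitals.
TNFAIP3, chr6:137867009-137867258, + strand: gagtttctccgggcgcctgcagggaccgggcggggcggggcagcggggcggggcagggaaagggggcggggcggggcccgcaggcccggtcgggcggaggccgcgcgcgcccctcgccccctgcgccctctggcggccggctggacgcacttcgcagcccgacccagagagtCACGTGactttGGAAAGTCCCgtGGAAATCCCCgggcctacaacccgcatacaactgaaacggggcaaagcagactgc
CCL22, chr16:57358533-57358782, + strand: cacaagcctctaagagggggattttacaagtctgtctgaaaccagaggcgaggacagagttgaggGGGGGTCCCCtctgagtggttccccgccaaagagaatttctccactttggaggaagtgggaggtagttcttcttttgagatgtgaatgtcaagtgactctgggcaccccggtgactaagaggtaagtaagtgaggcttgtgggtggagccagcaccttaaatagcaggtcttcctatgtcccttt
CD83, chr6:14117522-14117771, + strand: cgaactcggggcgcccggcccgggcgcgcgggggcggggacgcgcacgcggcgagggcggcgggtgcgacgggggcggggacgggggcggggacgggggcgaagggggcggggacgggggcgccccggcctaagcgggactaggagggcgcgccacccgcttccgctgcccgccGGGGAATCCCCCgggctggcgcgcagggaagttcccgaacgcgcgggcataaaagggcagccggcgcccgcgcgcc
In windows from 250 bases before to 50 after a start, a κB consensus was found for 33 of 176 genes called lower (18.8%), 19 of 237 called higher (8.02%) and 768 of 8825 tested genes with a promoter in the table (8.7%). Among the members of the NF-κB list it was found for 15 of 24, a list made of genes known as targets. A gene with several starts was counted once if any of its windows held the motif. The κB matches of TNFAIP3 do not overlap its E box, and those of CD83 on the 2 strands overlap each other. A match is a description of the letters and not of binding.

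MHC class II genes, which present antigen to helper T cells and are expressed by B cells, were lower at 2.5 μM, and 11 of them passed the test. All 15 members tested had a negative difference and non-overlapping groups, where 9.47% of all genes were lower without overlap. Of the 15, 11 were called lower and 0 higher, against 1.86% and 2.39% of all genes, and the median was -0.30. Omitting single libraries gave 7 to 12 calls, 11 without replicate 1 at 0.5 μM, 7 without replicate 2 at 2.5 μM and 7 without replicate 3 at 2.5 μM. Under an equal sum of RPKM 7 were called lower. HLA-DRA, the alpha chain of HLA-DR, was at 793, 771 and 752 RPKM at 2.5 μM and 1125, 948 and 1016 RPKM at 0.5 μM (log2 difference -0.41 ± 0.06 SE, adjusted p = 0.00871). HLA-DRB1, which encodes a beta chain, was at 77.6, 69.5 and 70.6 RPKM and 110, 94 and 108 RPKM (log2 difference -0.51 ± 0.066 SE, adjusted p = 0.00543). HLA-DQA1, an alpha chain of HLA-DQ, was at 22.1, 22.1 and 20.4 RPKM and 37.3, 29.5 and 36.3 RPKM (log2 difference -0.65 ± 0.085 SE, adjusted p = 0.00549). For HLA-DMA, which helps load peptides, the values were 117, 116 and 115 RPKM and 156, 143 and 144 RPKM (log2 difference -0.35 ± 0.042 SE, adjusted p = 0.00432). These differences are smaller than those of the chemokines. In all 4 genes the libraries lay closer together at 2.5 μM than at 0.5 μM. For HLA-DRA and HLA-DQA1 the spread at 0.5 μM was wider than the gap between the doses. HLA-DPB1, HLA-DOA, HLA-DMB and HLA-DPA1 were also called (-0.34 to -0.23). The invariant chain gene CD74 differed by -0.30 and was called, whereas CIITA, the master regulator of the class, differed by -0.29 and was not. HLA-DRB5 and HLA-DQA2, which share sequence with HLA-DRB1 and HLA-DQA1 so that all 4 are uncertain, differed by -0.53 (adjusted p = 0.0328) and -0.61 (adjusted p = 0.0124). Of 14 genes of MHC class I and antigen processing, 3 were called lower and 0 higher, among them the nonclassical HLA-F at -0.52 (adjusted p = 0.00249) and HLA-E at -0.33 (adjusted p = 0.00607). The median of that list was -0.06, and it turned positive (0.07) under an equal sum of RPKM, where 2 were called lower and 3 higher.

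The Y box, a reversed CCAAT element that class II promoters share, is shown in capitals (CTGATTGG, either strand) before the starts of HLA-DMA and HLA-DRB1 to place the members that were lower together beside their common element.
HLA-DMA, chr6:32953098-32953347, - strand: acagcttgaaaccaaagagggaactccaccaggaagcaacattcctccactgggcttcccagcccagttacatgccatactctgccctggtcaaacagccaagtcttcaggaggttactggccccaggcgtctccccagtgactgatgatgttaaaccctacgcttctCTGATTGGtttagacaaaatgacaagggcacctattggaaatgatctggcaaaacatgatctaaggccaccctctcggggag
HLA-DRB1, chr6:32589849-32590098, - strand: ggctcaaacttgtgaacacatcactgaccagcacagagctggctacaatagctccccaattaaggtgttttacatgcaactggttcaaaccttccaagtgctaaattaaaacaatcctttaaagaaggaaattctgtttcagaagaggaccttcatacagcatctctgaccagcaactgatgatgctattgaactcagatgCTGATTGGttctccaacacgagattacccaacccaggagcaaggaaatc
It was found in the windows of 6 of 13 class II genes with a promoter in the table and of 606 of 8825 tested genes (6.87%). The element was not particular to class II or to genes that were lower. It was also found for 4 of 11 genes of MHC class I and antigen processing, 7 of 25 lipid synthesis genes and 7 of 42 replication genes, and for 1 of 24 NF-κB genes. Its share was 8.52% among all genes called lower and 10.1% among those called higher.

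Immediate early genes and the phosphatases that limit ERK are turned on within minutes of receptor signaling. Of 24 tested members of this list 10 were called lower and 0 higher, against 1.86% and 2.39% of all genes, with a median of -0.34. Between 6 and 11 calls were left after omitting any 1 library, 7 without replicate 1 at 0.5 μM and 6 without replicate 3 at 2.5 μM. EGR2, a zinc finger factor induced by the antigen receptor, was at 14.7, 13.6 and 14.4 RPKM at 2.5 μM and 40.4, 33.2 and 33.3 RPKM at 0.5 μM (log2 difference -1.29 ± 0.078 SE, adjusted p = 0.000246). DUSP2, a nuclear ERK phosphatase, was at 165, 159 and 154 RPKM and 276, 243 and 283 RPKM (log2 difference -0.74 ± 0.058 SE, adjusted p = 0.000685). The groups of both genes were separated by a gap wider than the spread within either. DUSP5, a second ERK phosphatase, was low, at 1.51, 1.35 and 1.32 RPKM and 4.8, 3.18 and 3.83 RPKM (log2 difference -1.21 ± 0.15 SE, adjusted p = 0.00436). NR4A3, a nuclear receptor of this class, CD69, an early activation marker, and FOS, a subunit of AP-1, differed by -0.82 (adjusted p = 0.016), -0.76 (adjusted p = 0.0197) and -0.63 (adjusted p = 0.0203). NR4A1, ZFP36L1, BTG2 and JUNB were also called lower (-0.61 to -0.33), whereas EGR1 (-0.24), JUN (-0.32) and DUSP1 (-0.17) were not called.

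Among B cell identity and receptor signaling genes, 5 of 43 (11.6%) were called lower and 2 (4.65%) higher, against 1.86% and 2.39% of all genes. The list median was -0.01. Under an equal sum of RPKM the median became 0.13 and the balance turned, with 4 called lower and 12 higher. The 2 higher calls were lost without any 1 library but replicate 3 at 0.5 μM. FCRL5, an inhibitory Fc receptor-like molecule, was at 7.58, 6.51 and 6.38 RPKM at 2.5 μM and 22.1, 16.8 and 16.6 RPKM at 0.5 μM (log2 difference -1.37 ± 0.11 SE, adjusted p = 0.000897). Its relative FCRL2 was at 3.34, 2.54 and 2.18 RPKM and 7.25, 5.53 and 5.52 RPKM (log2 difference -1.06 ± 0.15 SE, adjusted p = 0.00871). CD40, the receptor for T cell help, was at 39.6, 36.5 and 37.5 RPKM and 51.9, 50.4 and 55.9 RPKM (log2 difference -0.47 ± 0.053 SE, adjusted p = 0.00267). Each of these 3 was lower in every library at the higher dose. FCER2 (CD23) and FCRL1 differed by -0.73 (adjusted p = 0.00549) and -0.23 (adjusted p = 0.0304), and the higher calls were TCL1A, a coactivator of AKT, at 0.23 (adjusted p = 0.0313) and the kinase gene BLK at 0.22 (adjusted p = 0.0369). CD274, which encodes the immune checkpoint ligand PD-L1, was at 5.07, 4.78 and 5.43 RPKM and 12.2, 8.85 and 9.04 RPKM (log2 difference -0.90 ± 0.12 SE, adjusted p = 0.00555). Outside the lists, the integrin subunit ITGB2 was at 1.54, 1.56 and 1.21 RPKM and 6.76, 4.25 and 4.94 RPKM (log2 difference -1.57 ± 0.16 SE, adjusted p = 0.00243). The membrane semaphorin SEMA7A was at 4.29, 4.2 and 3.81 RPKM and 14.4, 10.7 and 12.3 RPKM (log2 difference -1.49 ± 0.11 SE, adjusted p = 0.000484). The cytokine signal transducer STAT5A was at 1.81, 1.12 and 1.12 RPKM and 5.43, 4.47 and 3.74 RPKM (log2 difference -1.46 ± 0.18 SE, adjusted p = 0.00436). These were 3 of the 12 largest falls, and their groups did not overlap.

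Genes that answer type I interferon had mostly negative differences, of which 4 passed the test and 11 with the replicate numbers as a block. Over all genes tested 5571 of 13629 had a negative difference, and 1.86% were called lower and 2.39% higher. Of 32 interferon-stimulated genes 31 had a negative difference and 4 (12.5%) were called lower, with a median of -0.36. The calls were the apoptosis factor XAF1 -1.29 (adjusted p = 0.0301), the regulators IRF9 -0.62 (adjusted p = 0.021) and IRF7 -0.58 (adjusted p = 0.00549), and STAT2 -0.37 (adjusted p = 0.0122). XAF1 was at 0.432, 0.251 and 0.262 RPKM at 2.5 μM and 2.5, 1 and 1.23 RPKM at 0.5 μM, where replicate 1 was far above the others, and without that library 2 members of the list were called. The count was 6 without replicate 3 at 0.5 μM and 1 and 2 without replicates 2 and 3 at 2.5 μM. With all 5 Ramos groups in one fit it was 7, and 6 under an equal sum of RPKM. Of 48 tested targets of ATF4, the factor of the amino acid response, 9 (18.8%) were called lower and 0 higher, while the list median was -0.04. Under an equal sum of RPKM the median became 0.10, with 5 called lower and 4 higher, and with the replicate numbers as a block 5 were called lower. The mTORC1 inhibitor gene DDIT4 was at 30, 25.7 and 26.9 RPKM at 2.5 μM and 42.2, 44.2 and 42.5 RPKM at 0.5 μM (log2 difference -0.64 ± 0.06 SE, adjusted p = 0.00145). The tryptophanyl-tRNA synthetase gene WARS was at 172, 173 and 172 RPKM and 259, 229 and 227 RPKM (log2 difference -0.46 ± 0.052 SE, adjusted p = 0.00267). The amino acid transporter SLC38A2, the glutathione-degrading enzyme CHAC1, the cysteine-forming enzyme CTH and the factor ATF5 differed by -0.59, -0.45, -0.41 and -0.37, and were called, as were SLC7A11 (-0.36), DDIT3 (-0.26) and SESN2 (-0.25). ASNS, asparagine synthetase, was at 159, 162 and 164 RPKM and 163, 164 and 165 RPKM and was not called (log2 difference -0.02 ± 0.034 SE, adjusted p = 0.77). Omission of 1 library left 2 to 6 ATF4 target calls, 5 without replicate 1 at 0.5 μM, 4 without replicate 2 at 0.5 μM, 4 without replicate 1 at 2.5 μM, 2 without replicate 2 at 2.5 μM and 2 without replicate 3 at 2.5 μM. In the BCL2 family of 16 genes, 4 were called lower, BCL2A1, the proapoptotic BCL2L11 -0.30 (adjusted p = 0.0279), PMAIP1 -0.25 (adjusted p = 0.0451) and BIK -0.17 (adjusted p = 0.0385), and the proapoptotic BAD was called higher 0.39 (adjusted p = 0.0452). Without replicates 1 or 3 at 0.5 μM or any 1 library at 2.5 μM, 1 or 2 genes of this family were called lower. The balance turned under an equal sum of RPKM, with 1 called lower and 4 higher, and with the replicate numbers as a block, with 1 lower and 2 higher. The BAD call was lost in 10 of 18 alternatives. Of 32 genes of glycolysis and the hypoxia response 3 were called lower, the peptide hormone gene ADM -0.76 (adjusted p = 0.00145), the glucose transporter gene SLC2A3 -0.69 (adjusted p = 0.0421) and the mitophagy receptor gene BNIP3L -0.44 (adjusted p = 0.0204). Without replicate 1 at 0.5 μM or replicates 2 or 3 at 2.5 μM, or with the replicate numbers as a block, 1 of the list was called lower, and under an equal sum of RPKM 4 were called lower and 3 higher.

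**Figure D2:**
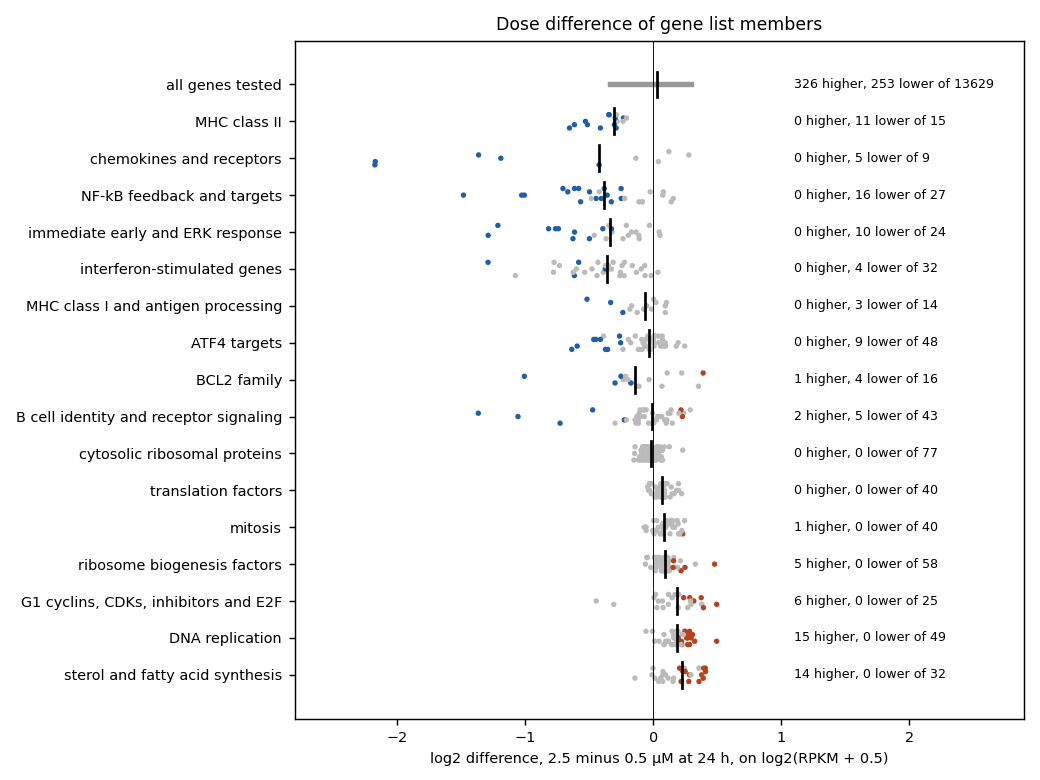
Each point is a tested member of a gene list, with its log2 difference (2.5 minus 0.5 μM at 24 h), in blue if called lower, red if called higher and grey if not called. Black ticks mark the medians and the grey bar spans the 5th to the 95th percentile of all genes tested. The counts at the right run from 0 higher and 11 lower of 15 for MHC class II to 14 higher and 0 lower of 32 for sterol and fatty acid synthesis.

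Part of the genes of DNA replication and of entry into S phase were higher at the higher dose, by smaller amounts. Of 49 replication genes 15 were called higher and 0 lower, 47 had a positive difference, 40 had non-overlapping groups with 2.5 μM higher (17.7% of all genes), and the median was 0.19. The number was 2 to 14 calls with 1 library omitted, 10 without replicate 1 at 0.5 μM, 7 without replicate 1 at 2.5 μM, 3 without replicate 2 at 2.5 μM and 2 without replicate 3 at 2.5 μM. All 5 Ramos groups in one fit gave 26. TYMS, thymidylate synthase, was at 42.8, 46.1 and 45.8 RPKM at 2.5 μM and 28.6, 33.1 and 33.5 RPKM at 0.5 μM (log2 difference 0.50 ± 0.065 SE, adjusted p = 0.00549). RRM2, a subunit of ribonucleotide reductase, was at 150.3, 160.4 and 156 RPKM and 121, 132 and 123 RPKM (log2 difference 0.31 ± 0.045 SE, adjusted p = 0.00871). MCM4, a subunit of the replicative helicase, was at 79.8, 88.3 and 87 RPKM and 66, 71.9 and 69.5 RPKM (log2 difference 0.30 ± 0.051 SE, adjusted p = 0.0166). In these 3 genes the lowest library at 2.5 μM exceeded the highest at 0.5 μM. CLSPN, a checkpoint adaptor, RFC3, a clamp loader subunit, and UHRF1, which keeps DNA methylation through replication, differed by 0.32 (adjusted p = 0.0196), 0.28 (adjusted p = 0.0203) and 0.28 (adjusted p = 0.0196). The other calls, MCM2, PCNA, POLD2, FEN1, TK1, MCM7, RFC4, RRM1 and MCM6, differed by 0.27 to 0.19. Of 25 genes of the G1 list 6 were called higher and 0 lower, with a median of 0.18. The activator gene E2F2 was at 43.5, 47 and 45.8 RPKM against 28.3, 34.1 and 34 RPKM (log2 difference 0.50 ± 0.073 SE, adjusted p = 0.00871). Its relative E2F1 was at 30.6, 33.1 and 32.2 RPKM against 23.3, 24.4 and 25 RPKM (log2 difference 0.39 ± 0.052 SE, adjusted p = 0.00549). The phosphatase gene CDC25A, the cyclin gene CCNE2, the inhibitor gene CDKN2A and the pocket protein gene RBL1 differed by 0.38, 0.32, 0.29 and 0.24, and were called. Without 1 library at a time there were 2 to 7 G1 calls, 4 without replicate 1 at 0.5 μM, 2 without replicate 1 at 2.5 μM, 2 without replicate 2 at 2.5 μM and 2 without replicate 3 at 2.5 μM. Of 40 mitosis genes 1 was called, the cyclin gene CCNA2 0.23 (adjusted p = 0.0379), and of 58 histone cluster genes 1, the linker histone HIST1H1B 0.27 (adjusted p = 0.0228). These were 2.5% and 1.72% of the lists, near the 2.39% of all genes tested that were called higher. The CCNA2 call was lost in 9 of 18 alternatives and the HIST1H1B call in 5. With 1 library left out 0 to 2 mitosis genes were called, 2 without replicate 3 at 0.5 μM and 0 without replicate 2 at 0.5 μM or any 1 library at 2.5 μM. For histone genes these counts were 0 to 6, with 6 and 2 without replicates 2 and 3 at 0.5 μM and 0 without replicate 1 at 0.5 μM or replicate 3 at 2.5 μM. Under an equal sum of RPKM 18 mitosis, 34 histone, 15 G1 and 42 replication genes were called higher.

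The E2F motif (TTTCGCGC, TTTGGCGC or TTTCCCGC on either strand) is in capitals in the 250 bases before the starts of the pair of E2F genes named, shown because it was more frequent among the genes called higher.
E2F1, chr20:33686386-33686635, - strand: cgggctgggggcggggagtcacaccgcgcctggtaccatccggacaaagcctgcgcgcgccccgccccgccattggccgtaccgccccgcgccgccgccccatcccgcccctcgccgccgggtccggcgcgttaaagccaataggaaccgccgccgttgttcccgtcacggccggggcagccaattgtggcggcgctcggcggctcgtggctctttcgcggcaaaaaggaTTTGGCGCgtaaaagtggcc
E2F2, chr1:23531234-23531483, - strand: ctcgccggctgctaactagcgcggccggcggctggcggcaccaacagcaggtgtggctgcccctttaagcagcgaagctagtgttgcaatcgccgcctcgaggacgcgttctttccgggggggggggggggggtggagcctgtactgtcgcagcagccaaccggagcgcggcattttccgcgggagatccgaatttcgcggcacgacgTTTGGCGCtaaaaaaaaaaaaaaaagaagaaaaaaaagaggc
The motif was found in the windows of 26 of 237 genes called higher (11%), 4 of 176 called lower (2.27%) and 523 of 8825 tested genes (5.93%), and of 23 of 42 replication genes.

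Part of the lipid synthesis genes, many of them targets of SREBP, were also higher. Of 32 members 14 were called higher and 0 lower, against 2.39% and 1.86% of all genes, with a median of 0.23. On omitting 1 library, 5 to 12 calls were left, 12 without replicate 1 at 0.5 μM, 7 without replicate 1 at 2.5 μM, 5 without replicate 2 at 2.5 μM and 5 without replicate 3 at 2.5 μM. Quantile normalization gave 8 and an equal sum of RPKM 24. INSIG1, a brake on SREBP processing that is itself an SREBP target, was at 69.4, 72.9 and 73.1 RPKM at 2.5 μM and 56.7, 51.2 and 53.9 RPKM at 0.5 μM (log2 difference 0.41 ± 0.048 SE, adjusted p = 0.00355). The fatty acid desaturase gene SCD was at 36, 37.1 and 36.8 RPKM and 27.8, 28.1 and 27.6 RPKM (log2 difference 0.39 ± 0.042 SE, adjusted p = 0.0025). FADS1, a desaturase of polyunsaturated fatty acid synthesis, was at 22.9, 24.2 and 24.2 RPKM and 18.5, 17.4 and 18.1 RPKM (log2 difference 0.39 ± 0.052 SE, adjusted p = 0.00549). Replicates of all 3 genes differed by less than the gap between the doses. The related desaturase FADS2 and an enzyme of late cholesterol synthesis, DHCR7, differed by 0.36 (adjusted p = 0.00495) and 0.41 (adjusted p = 0.0128), and MSMO1, FASN, EBP, ACLY, SQLE, FDPS and IDI1, also called, by 0.28 to 0.21. HMGCS1, an early enzyme of the mevalonate pathway, differed by 0.07 and was not called.

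MYC RNA itself was slightly higher at 2.5 μM, at 162, 177 and 168 RPKM against 140.1, 152 and 139.7 RPKM at 0.5 μM (log2 difference 0.23 ± 0.048 SE, adjusted p = 0.0304). This call was lost in 9 of 18 alternatives, among them quantile normalization and leaving out any library but replicate 2 at 0.5 μM, and its adjusted p ranged from 0.0111 to 0.144 over them. MAX, its partner, was at 21.4, 23.3 and 23.8 RPKM and 23.5, 23.7 and 22.6 RPKM (log2 difference -0.03 ± 0.056 SE, adjusted p = 0.82). Of 16 genes of the MYC network 2 were called, MYC and MAZ, a zinc finger factor that binds the MYC promoter, at 0.33 (adjusted p = 0.0357). Quantile normalization called 0 of this network, an equal sum of RPKM 5, omitting replicates 1 or 3 at 0.5 μM 1, and omitting any 1 library at 2.5 μM 0. Over all genes tested 8058 of 13629 had a positive difference, and 2.39% were called higher. Of 58 ribosome biogenesis factors 54 had a positive difference and 5 (8.62%) were called higher, with a median of 0.09. These were FBL 0.48 (adjusted p = 0.00277), RRP9 0.25 (adjusted p = 0.0271), NOP56 0.22 (adjusted p = 0.0301), IMP4 0.16 (adjusted p = 0.0452) and NCL 0.16 (adjusted p = 0.0461). Without replicate 1 at 0.5 μM or any 1 library at 2.5 μM, after quantile normalization or with the replicate numbers as a block 1 was called, without replicate 2 at 0.5 μM 2, and with an equal sum of RPKM 33. FBL, the methyltransferase of box C/D particles, was at 126, 121 and 121 RPKM at 2.5 μM and 80.9, 93.6 and 89.1 RPKM at 0.5 μM. None of the 77 cytosolic ribosomal protein genes and none of the 40 translation factor genes was called, with medians of -0.02, which became 0.12 under an equal sum of RPKM, and 0.07. At an unadjusted p under 0.05 they held 3 and 13 genes. Under the equal sum 3 and 19 of them were called higher, and quantile normalization called 2 ribosomal protein genes lower. The ribosomal protein genes RPS18 and RPL41 differed by -0.06 (adjusted p = 0.626) and -0.02 (adjusted p = 0.851), and the sign of both turned under the equal sum, that of RPL41 also under quantile normalization. The list of genes whose promoters the study examined by ChIP leaves out ATDA3, which the paper also names. Of its 9 tested genes, NCL and the pseudouridine synthase gene PUS1 0.38 (adjusted p = 0.0376) were called higher. The NCL call was lost in 12 and the PUS1 call in 10 of 18 alternatives. Of these 9 genes 0 were called after median-ratio or quantile scaling, with the replicate numbers as a block, or without any 1 library but replicate 3 at 0.5 μM, which left 1, and 4 under an equal sum of RPKM. NPM1, BOP1, FBXW8, LYAR, RRS1, VEGFA and HSPBAP1 were not called, with differences from -0.32 (VEGFA) to 0.36 (FBXW8), and FBXO32 and ARC were under the filter on low values. Of the genes the study followed by RT-PCR, EGR2 and CD274 were called lower, and ASNS, SAT1 -0.17 (adjusted p = 0.223) and ID3 0.04 (adjusted p = 0.598) were not called. The study did its RT-PCR and ChIP in HCT116 cells, with Omomyc against without. Cells and contrast thus differ from the 2 doses in Ramos cells compared here, and these calls do not test those results.

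INSIG1 and ODC1, the rate-limiting enzyme of polyamine synthesis and a known MYC target, are 2 called genes with an E box (CACGTG, in capitals) in the 250 bases before a start.
INSIG1, chr7:155297628-155297877, + strand: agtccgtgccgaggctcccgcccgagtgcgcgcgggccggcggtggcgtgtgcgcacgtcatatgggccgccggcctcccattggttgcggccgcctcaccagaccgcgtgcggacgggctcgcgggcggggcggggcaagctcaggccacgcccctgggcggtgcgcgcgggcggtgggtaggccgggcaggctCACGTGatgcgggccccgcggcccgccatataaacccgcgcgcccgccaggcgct
ODC1, chr2:10448013-10448262, - strand: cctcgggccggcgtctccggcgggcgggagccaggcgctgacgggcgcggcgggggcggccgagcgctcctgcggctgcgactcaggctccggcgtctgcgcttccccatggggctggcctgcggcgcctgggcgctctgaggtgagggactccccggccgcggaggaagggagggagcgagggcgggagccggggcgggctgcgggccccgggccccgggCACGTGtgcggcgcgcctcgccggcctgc
ODC1 was at 703, 713 and 705 RPKM at 2.5 μM and 559, 589.8 and 615 RPKM at 0.5 μM (log2 difference 0.27 ± 0.043 SE, adjusted p = 0.0124). An E box was found in the windows of 34 of 237 genes called higher (14.3%), 24 of 176 called lower (13.6%) and 1146 of 8825 tested genes (13%). The shares of genes called in either direction were thus close to that of all tested genes. The κB and E2F shares differed more, but those motifs were picked after seeing which genes were called. The called genes also include members of the NF-κB and replication lists, which are rich in them, so the motifs cannot be compared on these shares. Of 155 genes named by the rule, 106 had a promoter in the table.

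Of the 12 largest rises outside small and mitochondrial RNAs, several were in loci whose reads can be shared with copies. The one with the lowest adjusted p was TUBB3, a tubulin gene, at 97.6, 101 and 101 RPKM at 2.5 μM and 47.7, 61.1 and 58 RPKM at 0.5 μM (log2 difference 0.85 ± 0.079 SE, adjusted p = 0.00145). GTF2IRD2B was at 27.3, 27.2 and 27 RPKM and 10, 13.1 and 18.2 RPKM (log2 difference 0.995 ± 0.16 SE, adjusted p = 0.0137), and F8A1 at 5.06, 4.6 and 4.5 RPKM and 2.79, 2.61 and 3.37 RPKM (log2 difference 0.61 ± 0.11 SE, adjusted p = 0.0203). Both have near-identical copies, and PPP1R2P4 is a pseudogene, so their reads can be split among copies and these values are uncertain. PPP1R2P4 was at 4.69, 4.6 and 7.47 RPKM and 0.747, 2.54 and 2.31 RPKM (log2 difference 1.44 ± 0.32 SE, adjusted p = 0.0391). The unnamed loci AC023509.1 and AF131215.7 and the light chain segment IGLV6-57 differed by 1.17, 0.80 and 0.76. The others were SAC3D1 (0.68), TMEM238 (0.64), NKX6-3 (0.63), the mitochondrial carrier SLC25A23 (0.63) and the basement membrane protein gene HSPG2 (0.60). For PPP1R2P4, AC023509.1, GTF2IRD2B, IGLV6-57 and SAC3D1, replicates within 0.5 μM differed by more than 1.5 times. Among more abundant genes, TCF3, the E protein that ID3 inhibits, was at 136, 149.5 and 143 RPKM and 102, 113 and 108 RPKM (log2 difference 0.41 ± 0.049 SE, adjusted p = 0.00428). MZB1 and CD27, of the plasma cell list, were higher by 0.26 (adjusted p = 0.0328) and 0.21 (adjusted p = 0.029), and the iron store gene FTH1 by 0.49 (adjusted p = 0.0334). MZB1 and CD27 were the 2 of 11 plasma cell genes called higher, with 0 lower, against 2.39% and 1.86% of all genes. Without replicates 2 or 3 at 2.5 μM or after quantile normalization 0 of this list were called. Its count was 1 without replicate 1 at either dose or with the replicate numbers as a block. Without replicate 3 at 0.5 μM 3 were called higher, and under an equal sum of RPKM 6.

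Small noncoding RNAs, which took a lower share of the RPKM at 2.5 μM, had few calls of their own. Of 196 tested genes of small RNAs and the mitochondrial genome 1 (0.51%) was called higher and 9 (4.59%) lower, with a median of -0.17. Of all genes 2.39% were called higher and 1.86% lower. SNORD17, a guide for RNA methylation, was at 466, 514 and 435 RPKM at 2.5 μM and 1004, 620 and 672 RPKM at 0.5 μM (log2 difference -0.67 ± 0.15 SE, adjusted p = 0.0426). The Cajal body RNAs SCARNA6, SCARNA7, SCARNA10 and SCARNA12 (-0.42 to -0.35), RMRP, the RNA of an endoribonuclease (-0.42), and the 7SL copy RN7SL396P (-0.53) were also called lower, and the U2 copy RNU2-6P was called higher (0.68), both of the copies being uncertain. The call of RMRP was lost in 9 and that of SNORD17 in 6 of 18 alternatives. Quantile normalization gives a gene of the same rank in every library the same value. The difference of 0 for RMRP after it therefore cannot show whether RMRP differed. Of 7 tested small RNAs of RNA polymerase III 7 had a negative difference, against 5571 of 13629 genes. The groups of 4 did not overlap, with 2.5 μM lower (9.47% of all genes), and 1 was called lower. Calls among 49 H/ACA and Cajal body RNAs went from 4 to 1 without replicate 1 at 0.5 μM or replicate 2 at 2.5 μM, to 2 without replicate 1 at 2.5 μM and to 0 without replicate 3 at 2.5 μM. Of 13 mitochondrial mRNAs 12 had a negative difference and 1 was called, MT-CO2, a subunit of cytochrome oxidase, at 176, 177 and 202 RPKM and 285, 256 and 213 RPKM (log2 difference -0.43 ± 0.097 SE, adjusted p = 0.0404). Of 82 nuclear genes of oxidative phosphorylation 1 (1.22%) was called, ATP5F1D (0.56). Without replicate 3 at 0.5 μM 4 mitochondrial mRNAs were called lower, and without any other 1 library 0. Of the nuclear genes 2, 3 and 4 were called higher without replicates 1, 2 and 3 at 0.5 μM, 0 without any 1 library at 2.5 μM, and 28 under an equal sum of RPKM. In the remaining lists 0 to 4 genes were called, where 2.39% of all genes tested were called higher and 1.86% lower. The 1 call of the proteasome list was 2.33% of its members and that of the ER stress list 2.22%, near these shares. Single calls in the nucleotide (3.85%), snoRNA host (4.17%) and autophagy (3.1%) lists were not far above. Higher were MRPL37, MRPS34 and MRPS26 of 77 mitochondrial ribosomal protein genes (0.23 to 0.25), and HSP90AA1 and FKBP4 of 18 heat shock genes (0.17 and 0.25). So were SRXN1, FTH1 and KEAP1 of 20 antioxidant genes (0.24 to 0.49), PAICS of 26 nucleotide synthesis genes (0.17), PSME4 of 43 proteasome genes (0.26) and the snoRNA host SNHG7 of 24 (0.30). Lower were MRPL39 (-0.31), SLC7A11 (-0.36), the p53 target SESN2 of 22 (-0.25), the ER stress gene HERPUD1 of 45 (-0.31), the autophagy gene GABARAPL1 of 32 (-0.39) and the clock gene PER1 of 10 (-0.48). None of 8 TRiC chaperonin genes, 3 MondoA targets, 10 genes of BMP and TGF-beta feedback, 2 mitochondrial rRNA and tRNA genes and 3 nuclear-retained RNAs was called by limma, and at an unadjusted p under 0.05 these lists held 4, 1, 2, 0 and 1 genes. Most calls of these lists depended on single libraries. Without replicate 2 or without replicate 3 at 2.5 μM, 0 genes were called in the mitochondrial ribosomal, heat shock, antioxidant, nucleotide, proteasome, snoRNA host, p53, ER stress, autophagy and clock lists. Without replicate 3 at 0.5 μM 5 mitochondrial ribosomal and 2 proteasome genes were called higher, and 2 ER stress genes in each direction. Without replicate 1 at 0.5 μM or at 2.5 μM the mitochondrial ribosomal and heat shock lists held 0 higher calls and the antioxidant list 1, and without replicate 2 at 0.5 μM these lists held 1, 0 and 3. An equal sum of RPKM gave 35 mitochondrial ribosomal, 9 heat shock, 9 antioxidant, 11 nucleotide, 17 proteasome, 7 ER stress, 6 TRiC, 5 snoRNA host, 2 p53, 2 autophagy, 2 BMP and TGF-beta and 1 clock genes called higher, with the 1 lower call left in the clock list and 0 in the others.

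Where the 24 h levels lay relative to untreated cells was described for the genes called between the doses, with no test, since the untreated libraries are compared with the same 24 h libraries. The labels give no time for the single untreated group, so both the 6 h and the 24 h groups are set against cells of unknown harvest time. The part of time in culture or handling in the differences from untreated cells was not tested. For genes called lower, the median log2 difference from untreated cells was 0.12 at 0.5 μM and -0.35 at 2.5 μM, and for genes called higher it was -0.02 and 0.28. In these genes, chosen because the doses differ at 24 h, the medians at 0.5 μM were nearer the untreated level than those at 2.5 μM. For all genes tested the 24 h medians were 0.02 and 0.05. At 0.5 μM, 215 of the 253 genes called lower were above the untreated mean, and 201 of the 326 called higher were below it. Of all 13629 genes tested 7848 were above it and 5753 below it. The same 0.5 μM libraries served to call these genes, which favors such counts, so they do not show a move past the untreated level. At 6 h, in other libraries, both doses lay on the side that 2.5 μM held at 24 h. The medians of the genes called lower were -0.44 at 0.5 μM and -0.60 at 2.5 μM. Those of the genes called higher were 0.32 and 0.37, against 0.02 and 0.03 for all genes tested. MHC class II showed this in every member, with all 15 below the untreated mean at 6 h at both doses and 14 of 15 above it at 24 h at 0.5 μM. CCL3 was at 20.9, 20 and 18.1 RPKM in untreated cells, at a mean of 1.96 RPKM at 6 h with 0.5 μM and 1.01 RPKM with 2.5 μM, and at means of 22.4 and 4.46 RPKM at 24 h. FCRL5 was at 15.6, 15.2 and 12.3 RPKM in untreated cells, 0.985 and 0.699 RPKM at 6 h, and 18.5 and 6.82 RPKM at 24 h. TYMS differed the other way, at 34.5, 30.4 and 30.5 RPKM in untreated cells. Its means were 54.6 and 58.7 RPKM at 6 h and 31.7 and 44.9 RPKM at 24 h. In RPKM, each of these genes was closer between the doses at 6 h than at 24 h. INSIG1 was apart between the doses at both times, with means of 100.3 and 125 RPKM at 6 h and 53.9 and 71.8 RPKM at 24 h, against 58.6, 49.7 and 52.6 RPKM in untreated cells. MYC was at a mean of 140 RPKM in untreated cells, 144 and 178 RPKM at 6 h, and 144 and 169 RPKM at 24 h.

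**Figure D3:**
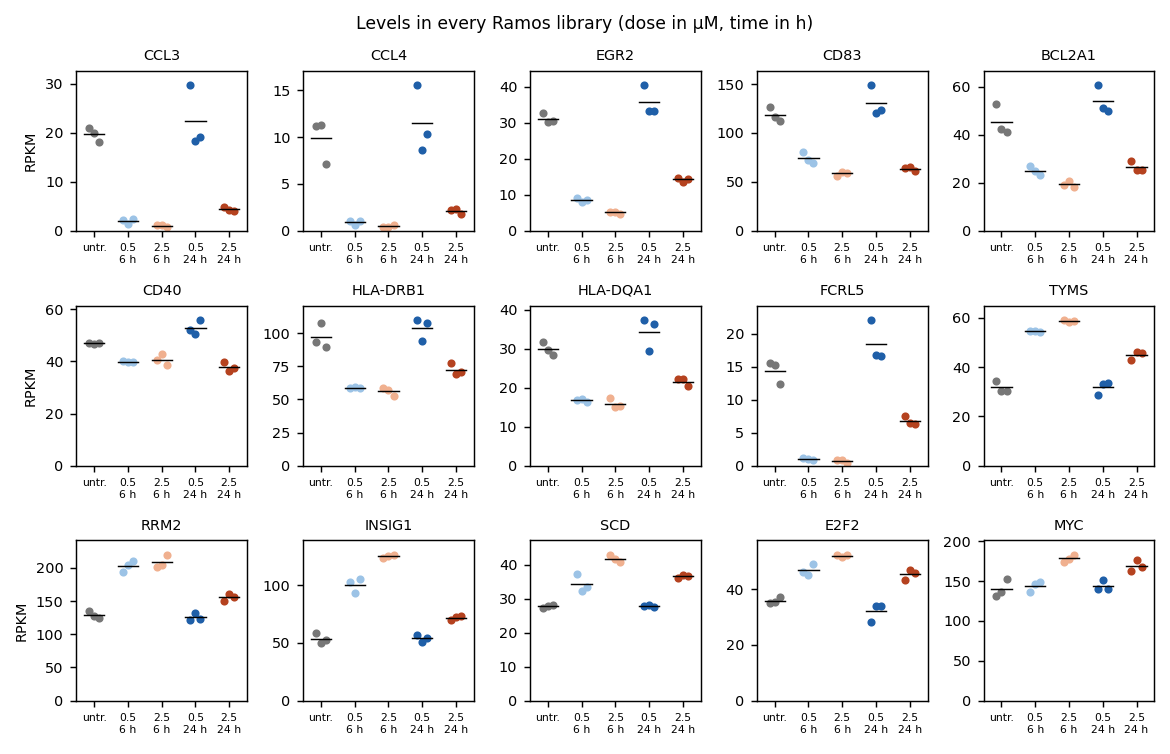
RPKM of 15 genes in every Ramos library (points, 3 a group) with the group mean (line), for untreated cells, 0.5 and 2.5 μM at 6 h, and 0.5 and 2.5 μM at 24 h, each panel on its own linear axis from 0. The means of CCL3 to FCRL5 are below untreated at 6 h at both doses and, at 24 h, near the untreated level at 0.5 μM and below it at 2.5 μM. TYMS to E2F2 show the reverse, and the MYC mean is higher at 2.5 μM at both times.

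**Figure D4:**
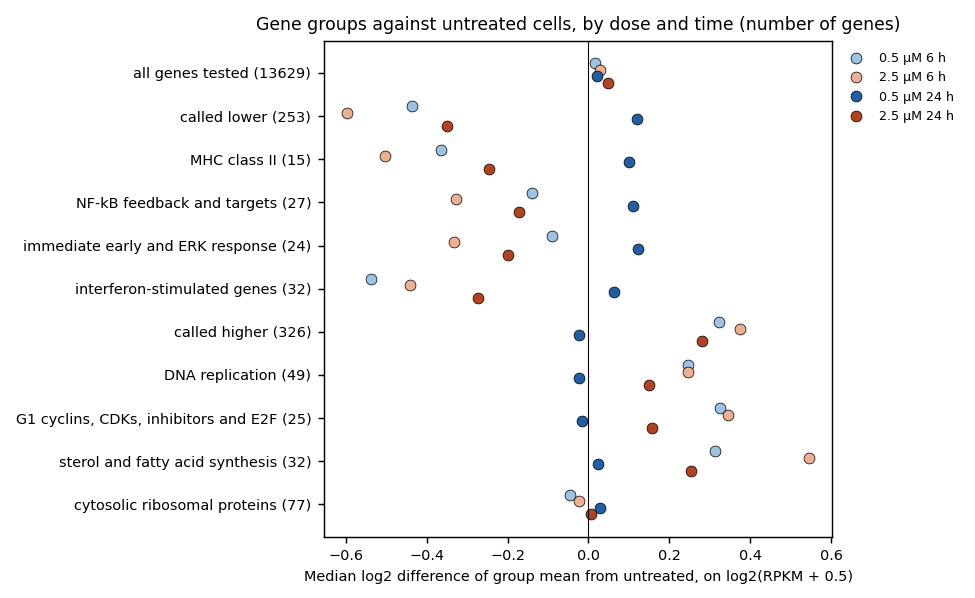
Median over the genes of a group (number in parentheses) of the log2 difference between a treated group mean and the untreated mean, for 2 doses and 2 times. At 24 h the points at 0.5 μM (dark blue) lie between -0.02 and 0.12, while those at 2.5 μM (dark red) lie on the side of the 6 h points, from -0.35 to 0.28, except for cytosolic ribosomal proteins.

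Whether the dose difference at 24 h differed from that at 6 h was tested as an interaction of dose and time over the 12 treated Ramos libraries. By limma with Benjamini-Hochberg adjustment 53 of 13588 genes (0.39%) were called, 35 (0.258%) with a more negative difference at 24 h and 18 (0.132%) with a more positive one. CD83 had an interaction of -0.70 (adjusted p = 0.013), CD40 of -0.50 (adjusted p = 0.013), CFLAR of -0.71 (adjusted p = 0.014) and TUBB3 of 0.64 (adjusted p = 0.013). Without replicate 2 at 0.5 μM and 6 h the count was 2, and without replicates 1 and 3 at 0.5 μM and 24 h it was 25 and 80. Without replicate 3 at 0.5 μM and 6 h or any 1 of the libraries at 2.5 μM it was 16 to 19. At 6 h the mean was higher at 2.5 μM than at 0.5 μM in 20.9% of the genes called lower at 24 h and in 76.4% of those called higher, against 54.3% of all genes. The exact permutation test of 3 libraries against 3 cannot give a p below 0.1, and gave 0.1 for each named gene whose groups did not overlap.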

How the data were processed

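Total RNA of 3 libraries per group was depleted of ribosomal RNA and sequenced with strand kept. The deposited table holds RPKM, which the authors computed per gene. The submitters' processing notes name RSEM, without a version. The aligner and genome build are not given in the sources used here. The values were fractional, so depth per library is unknown, and there are no counting intervals.

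From RPKM, log2(RPKM + 0.5) was compared between 2.5 and 0.5 μM at 24 h with limma 3.58.1 (empirical Bayes with a trend on expression, Benjamini-Hochberg adjustment, threshold 0.05) in R 4.3.3, over genes with a mean of at least 0.5 RPKM in the 6 libraries. The main fit held these 6 libraries and no covariate. Dose by time was fitted on the 12 treated Ramos libraries. Single values were tested by the exact, two-sided permutation test. Tables, motifs and figures used Python 3.11.15, pandas 2.3.3, numpy 2.4.6, scipy 1.17.1 and matplotlib 3.10.9. The fit was tested on simulated data: of 200 genes changed by a log2 of 1 or 0.5 among 13629, it recovered 171 (85.5%) and 96 (48%), with 10 and 3 false calls, and with no change it made 0 calls. The simulated noise was independent between genes, with no shift shared by a library or by the small RNAs. These counts thus check the fit and do not give the error rate in the real libraries.

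Genes were matched to GENCODE 29 by identifier (57388 of 57992) and to RefSeq promoters by symbol. The genes named were the 12 largest rises and falls past the threshold with a mean of at least 2 RPKM and no overlap, small and mitochondrial RNAs left out, the 3 largest of each direction among those RNAs, MYC, MAX, the genes the study examined by RT-PCR or ChIP, and, per list, up to 6 called members of largest difference or, with none called, the 2 of highest mean. The ChIP promoter that the paper names ATDA3 was left out. Other called list members are given by name, except some genes that are not reported here, and other members that were not called were picked after their values were seen. The comparison, the gene lists and the rule were chosen with earlier results of these data known, and the κB, Y box and E2F motifs after seeing which genes were called. Alternatives were other pseudocounts, filters, scalings, variance models and sets of libraries.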

Additional observations from a re-analysis of the deposited data

Results flagged for a closer look

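Each of the following named genes had a dose difference (2.5 minus 0.5 μM, log2) at 24 h that differed from the one at 6 h in the test of dose by time, by limma with Benjamini-Hochberg adjustment over 13588 genes. The difference was more negative at 24 h for the chemokine genes CCL1 by -2.21, CCL3 by -1.49, CCL4 by -1.63 and CCL3L1 by -1.61, and for the receptor gene CCR7 by -1.18, with adjusted p from 0.0097 to 0.0499. At 6 h these genes were near the pseudocount, with CCL1 at means of 0.239 RPKM with 0.5 μM and 0.0487 RPKM with 2.5 μM, so that their 6 h differences are understated on this scale. This also holds for DUSP5 and FCRL5, given next. Their 6 h means were 0.726 and 0.985 RPKM with 0.5 μM and 0.666 and 0.699 RPKM with 2.5 μM. For activation genes the dose difference was more negative at 24 h by -1.15 (DUSP5), -0.60 (EGR2), -0.70 (CD83), -0.64 (BCL2A1) and -0.71 (CFLAR). Among B cell surface and class II genes it was more negative by -1.05 (FCRL5), -0.50 (CD40), -0.58 (HLA-DQA1) and -0.44 (HLA-DRB1). It was more positive at 24 h for TUBB3 by 0.64, for TYMS by 0.39, for F8A1 by 0.83 and for the pseudogene PPP1R2P4 by 3.09, where the groups at 6 h had SDs of 1.52 and 1.77 RPKM around means of 2.01 and 6.54 RPKM.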

How the results depend on the processing

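The count of 579 genes was within 1.5 times under both other pseudocounts (574 and 584), a filter at 2 RPKM (779), median-ratio (541) and quantile scaling (444), an equal sum over nuclear protein-coding genes (470) and array weights (707). It was 65 with no filter, 2567 with an equal sum of RPKM, 54 without the variance trend, 910 with all 5 Ramos groups in one fit, 122 at an adjusted p under 0.01 and 40 with a log2 difference of at least 1 besides, and 142 to 645 with 1 library left out. The count of 53 genes for dose by time was 35 with a pseudocount of 0.1, 2 with no filter, 15 with an equal sum of RPKM, 8 without the trend, 88 with array weights, 2 at an adjusted p under 0.01 and 2 to 80 with 1 library left out.

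With the replicate numbers as a block 366 genes were called between the doses and 48 for dose by time. Deviations of libraries with the same number correlated at -0.019, 0.0039 and 0.035 and only replicate 3 correlated best with its own number, so the numbers were not taken as pairs.

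Calls in the lists were, for chemokines, 2 (no filter) and 3 (filter at 2 RPKM, no trend, and p under 0.01), and 3 to 5 leaving out 1 library. For NF-κB genes they were 3, 2 and 9 (no filter, no trend, p under 0.01), 3 with a log2 difference of at least 1, and 10 to 16. For MHC class II they were 2, 0 and 7 (no filter, no trend, equal sum), 0 with a log2 difference of at least 1, and 7 to 12. For immediate early genes they were 4, 4 and 5 (no filter, no trend, p under 0.01), 2 with a log2 difference of at least 1, and 6 to 11. For replication they were 0, 0, 42 and 26 (no filter, no trend, equal sum, all groups), 2 at p under 0.01, 0 with a log2 difference of at least 1, and 2 to 14. For lipid synthesis they were 5, 1, 24, 8 and 5 (no filter, no trend, equal sum, quantile, p under 0.01), 0 with a log2 difference of at least 1, and 5 to 12. The E box share of tested genes was 11.5% in the 250 bases before the start alone.

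No named gene that was called changed sign. As the groups of these genes did not overlap, only the changes of scaling could have reversed a sign, so the other alternatives do not bear on it. Of 2786 alternatives over 155 named genes, 2097 kept direction and call, 651 lost the call, 7 gained it and 31 changed sign in genes not called. With an equal sum of RPKM, MAX was at 0.11, ASNS at 0.12, RPS18 at 0.083, RPL41 at 0.11, EEF1A1 at 0.11, EEF2 at 0.10, MT-RNR2 at 0.10, TXNIP at 0.10, TGFBR2 at 0.13, NEAT1 at 0.039 and CD79A at 0.038. With median-ratio, quantile and coding-sum scaling, the LYAR log2 difference was -0.0091, -0.022 and -0.00145, and the LTBP1 log2 difference was -0.011, -0.023 and -0.00314. NPM1 was at -0.0047 with the first and RPL41 at 0.03 with the second. MT-RNR2 was at 0.051 with array weights. With 1 library left out, MAX ran from -0.060 to 0.0173, LYAR from -0.035 to 0.074, RPL41 from -0.075 to 0.0221, TXNIP from -0.088 to 0.076, LTBP1 from -0.00014 to 0.058, TGFBR2 from -0.0300 to 0.0207 and MT-RNR2 from -0.38 to 0.32. The cause was not tested. Depth is unknown, so low genes rest on the replicate spread alone.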

Other observations

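The inhibitor gene CDKN1B (p27) had a difference opposite in sign to most of the G1 list and missed the threshold (log2 difference -0.44, adjusted p = 0.0511 by limma with Benjamini-Hochberg adjustment), at means of 4.4 ± 0.303 RPKM at 2.5 μM and 6.19 ± 0.79 RPKM at 0.5 μM (SD, n = 3). Of the 6 B cell markers 0 were called by limma, and 3 had an unadjusted p under 0.05. The groups did not overlap for CD79B, a subunit of the antigen receptor, higher at 2.5 μM (log2 difference 0.24, adjusted p = 0.0888), and for MS4A1 (-0.14) and CD22 (-0.10), lower. CD79B was called higher under an equal sum of RPKM and without replicate 3 at 0.5 μM. IFIT1, an interferon-induced gene, was at 0.693 ± 0.466 RPKM at 2.5 μM and 2 ± 0.841 RPKM at 0.5 μM (SD, n = 3) and did not pass the test (adjusted p = 0.0826). The 3 nuclear-retained RNAs tested, which bear on RNA quality, summed with the untested member to 514.8 to 532.9 RPKM at 2.5 μM and to 545.2 to 603.3 RPKM at 0.5 μM, with the highest sum in replicate 1 at 0.5 μM.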
